A study of Mus musculus with 8 samples.

Results

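Oxidative phosphorylation genes were taken as every gene of the table whose symbol matches a form used for subunits of a respiratory chain complex or of ATP synthase: Nduf with a, b, c, s or v, Uqcr, Cox4 to Cox8, Atp5, Sdha to Sdhd, and the mitochondrial mt-Nd, mt-Co, mt-Cytb and mt-Atp genes. Of 34094 genes in the table, 112 matched, and 96 were left once Ndufab1, 8 assembly factors with Ndufaf symbols and 7 pseudogene symbols were set aside. Of these 96 members, 83 lie in the nuclear genome and 13 in the mitochondrial genome. All 96 passed the filter on low values. Nuclear members numbered 79 subunits, and 4 genes were kept apart from the sums of subunits: Cox7a2l, Ndufa4l2, Atp5s and Atp5sl.

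RNA was sequenced from the CA1 field of the hippocampus in Brpf1 conditional knockout (cKO) mice and in wild-type (WT) mice, with 4 libraries in each group. Brpf1 encodes a scaffold of histone acetyltransferase complexes and is linked to intellectual disability. All animals were C57BL/6 mice, 2 months old, and the labels name no agent given to either group. The sources used here do not name the Cre driver, its promoter or the deleted exons, and the titles of the cKO samples also speak of a knockdown. One protocol counts fewer pairs of mice than there are libraries in a group, and which mouse gave which library is not given, so the p-values measure the spread between libraries, which may be partly technical.

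Oxidative phosphorylation couples the oxidation of NADH and succinate to the making of ATP. Complex I (NADH dehydrogenase) and complex II (succinate dehydrogenase) pass electrons to ubiquinone, complex III (the cytochrome bc1 complex) passes them on to cytochrome c, and complex IV (cytochrome c oxidase) hands them to oxygen. Complexes I, III and IV pump protons, and complex V (ATP synthase) uses the gradient. Most subunits are encoded in the nucleus, translated in the cytosol and imported. The mitochondrial genome encodes a few core subunits of complexes I, III, IV and V and none of complex II, so that both genomes supply parts of the same complexes. Neurons draw most of their ATP from this pathway.

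Normalized reads are the reads of a gene over the size factor of its library. Fold changes are cKO over WT in log2(normalized reads + 1), a scale that makes changes of weakly read genes look smaller. Reads on genes came to between 40330226 and 46559795 per cKO library and between 42346644 and 49897832 per WT library. Brpf1 itself had 848, 1032, 897 and 1005 normalized reads in the cKO libraries, against 1358, 1451, 1473 and 1380 in the WT libraries, so that every cKO library lay below every WT library. Its log2 fold change was −0.59 (SE 0.089, limma adjusted p = 0.132 with Benjamini-Hochberg adjustment over 26135 genes). The submitters' own statistics did call the loss of Brpf1, with FDR = 1.5e-07. The 8 markers of pyramidal neurons of CA1 and other fields were detected in every library, and their summed level ran from 200724 to 238241 in cKO and from 199937 to 236751 in WT.

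No oxidative phosphorylation gene was called between cKO and WT CA1 in the test across all genes. That test did not call Brpf1, the targeted gene, either, so 0 calls do not show equal levels. limma called 0 of the 96 members at an adjusted p under 0.05, against 5 of 26135 genes tested (0.0191%), and limma-voom on the recovered reads likewise called 0 members. The differences were small: 89 of the 96 members had a log2 fold change within 0.25 of 0. At an unadjusted p under 0.05, 8 members (8.33%) were higher in cKO, where 4.07% of all genes tested were, and 0 members were lower in cKO, where 4.6% of all genes were. Every cKO library lay above every WT library for 9 members (9.38%), against 2.57% of all genes, and every cKO library lay below every WT library for 0 members, against 2.35% of all genes. Scaling changed the first of these counts: of the 96 members, 3 were higher and 1 lower at an unadjusted p under 0.05 after quantile normalization, and 5 were higher and 0 lower when libraries were scaled to their reads on nuclear genes. Without cKO replicate 3 the count of members higher in cKO was 2, and without WT replicate 3 there were 6 higher and 4 lower. The shares of all genes at an unadjusted p are given for the main fit only, not for these other settings. They also take in weakly read genes. In the main fit, other protein-coding genes with a mean of at least 1000 normalized reads were counted at that p in either direction. These were 4 of 115 with transcripts under 700 bases, 35 of 379 from 700 to under 1200, and 856 of 6810 of 1200 or longer. Of the nuclear subunits, read without that limit on the mean, 0 of 38, 3 of 23 and 4 of 18 had such a p. Of the members, only Cox7a2l had an FDR under 0.05 in the authors' deposited table (1.04% of members), against 0.657% of all genes.

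The nuclear and the mitochondrial genome gave medians on different sides of 0. The 79 nuclear subunits had a median log2 fold change of 0.0082 with 41 positive, and the 13 mitochondrially encoded subunits had a median of −0.13 with 2 positive. The median over all genes tested was −0.018. The nuclear median turned to −0.035 under quantile normalization and −0.027 under scaling to nuclear reads, while the mitochondrial median was negative under every scaling, between −0.17 and −0.016. Without WT replicate 1 the mitochondrial median was −0.035. The nuclear median was −0.0015 without cKO replicate 2 and −0.039 without WT replicate 3.

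**Figure D1:**
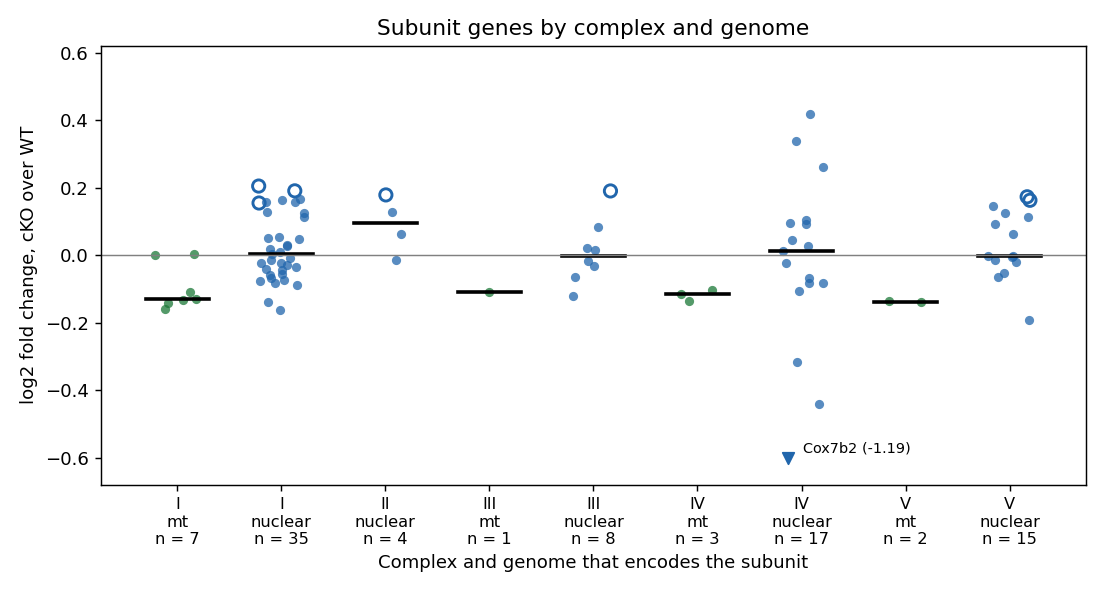
Each point is a subunit gene, placed by the complex and the genome that encodes it (mt, mitochondrial), and the vertical axis is the log2 fold change of cKO over WT from limma. Bars mark medians and open circles an unadjusted p under 0.05. The 13 mitochondrial genes have a median of −0.13 and none is circled, while 7 nuclear subunits are circled, all above 0, and Cox7b2 lies below the axis at −1.19.

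The 13 mitochondrial members are subunits of complexes I, III, IV and V, and per transcript length their messengers were the most abundant of the pathway. Together they took 10.1 ± 0.894% of all reads in cKO and 11.1 ± 1.32% in WT (SD, n = 4 each). Per transcript length, mt-Co1 stood highest, with 900038 normalized reads per kilobase in cKO and 991858 in WT, and mt-Nd3 lowest, with 77934 in cKO and 84580 in WT. The highest nuclear subunit on that scale, Cox8a, a small structural subunit of complex IV, had 21823 normalized reads per kilobase in cKO and 21157 in WT.

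mt-Co1, the catalytic subunit of cytochrome c oxidase, had 1386581, 1548315, 1375664 and 1251675 normalized reads in the cKO libraries, against 1753093, 1518710, 1293015 and 1564863 in the WT libraries. WT replicate 1 was the highest library and cKO replicate 4 the lowest, and the groups overlapped. The log2 fold change of mt-Co1 was −0.14 (SE 0.097, limma adjusted p = 0.701). mt-Cytb, the only mitochondrial subunit of complex III, had 553722, 620850, 527752 and 511268 in cKO, against 708045, 601590, 507571 and 582204 in WT, with a log2 fold change of −0.11 (SE 0.10, limma adjusted p = 0.775). mt-Nd4, a proton-pumping subunit of complex I, had 429939, 447590, 399105 and 389463 in cKO, against 551328, 470506, 398382 and 449545 in WT. Its log2 fold change of −0.16 (SE 0.096) was the most negative of the 13, with a limma adjusted p of 0.646.

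Across the mitochondrial subunits the same libraries stood at the ends. WT replicate 1 held the highest value for 12 of the 13 genes, cKO replicate 4 the lowest for 10 and WT replicate 3 the lowest for the other 3. In complex IV, mt-Co2 averaged 247865 ± 24605 in cKO and 270095 ± 42888 in WT (SD, n = 4 each). mt-Co3 averaged 270081 ± 31235 in cKO and 290839 ± 40145 in WT. Of the other membrane subunits of complex I, mt-Nd1 averaged 412210 ± 41437 in cKO and 453284 ± 59239 in WT, and its log2 fold change of −0.13 became 0.022 under quantile normalization. mt-Nd2 averaged 274479 ± 12498 in cKO and 302124 ± 41556 in WT.

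The log2 fold changes of mt-Nd3 and mt-Nd4l, small membrane subunits of complex I, were −0.11 and −0.14. In complex V, mt-Atp6, the proton channel subunit, averaged 314624 ± 27386 in cKO and 347797 ± 52821 in WT. mt-Atp8, its small partner, averaged 78946 ± 7827 in cKO and 87330 ± 13829 in WT. Both had a log2 fold change of −0.14.

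mt-Nd5 and mt-Nd6 had the fold changes nearest 0 of the 13 mitochondrial genes, and their difference from the other 11 was not tested. mt-Nd5, another proton-pumping subunit, had 307856, 343983, 289781 and 301932 in cKO, against 364334, 299320, 278219 and 301569 in WT, and a log2 fold change of 0.0045 (SE 0.090, limma adjusted p = 0.992). mt-Nd6 had 105233, 133191, 106421 and 103303 in cKO, against 130131, 111380, 100281 and 105709 in WT, and a log2 fold change of 0.0010 (SE 0.10, limma adjusted p = 0.998). The high mt-Nd6 value in the cKO group came from replicate 2. The sign of both fold changes turned with the setting: scaled to nuclear reads, mt-Nd5 had −0.031 and mt-Nd6 −0.034. mt-Nd6 is the only member read from the other strand of the mitochondrial genome, and its annotated end shares 14 bases with that of mt-Nd5. The library kit keeps strand, but the strand setting of the counting is not given, so reads of these neighbours cannot be told apart where they overlap. Whether reads of the opposite strand were counted along the rest of either gene is likewise not known.

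Other mitochondrial genes share bases on the same strand. mt-Nd4l and mt-Nd4 share 7 bases. mt-Atp8, the shorter gene, and mt-Atp6 share 43 bases, chrM:7927-7969 on the plus strand of GRCm38, printed here because a read across it belongs to both genes. Taken from the GENCODE M21 transcripts, it opens with the first base of mt-Atp6 and closes with the last base of mt-Atp8.
mt-Atp8 and mt-Atp6 overlap: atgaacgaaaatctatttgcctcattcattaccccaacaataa

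By complex, the reads of the mitochondrial subunits were set against those of the nuclear subunits of the same complex within each library. For complex I that ratio was 14.8, 15.6, 13.5 and 14.4 in the cKO libraries, against 18.6, 14.9, 15.2 and 15.6 in the WT libraries. For complex III, without cytochrome c1 (Cyc1), it was 14.0, 15.4, 12.9 and 13.7 in cKO, against 17.97, 14.6, 14.3 and 14.7 in WT. For complex V it was 2.84, 3.26, 2.71 and 2.75 in cKO, against 4.07, 3.18, 2.94 and 3.17 in WT. In complexes I, III and V cKO replicate 2 alone reached into the WT range, where it lay above 3 WT libraries, and WT replicate 1 was the highest library.

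Complex IV had the highest ratio of the complexes, with 24.8, 28.5, 23.0 and 24.9 in the cKO libraries, against 31.5, 27.5, 28.3 and 28.7 in the WT libraries, so that cKO replicate 2 alone overlapped with WT, above 2 WT libraries. The log2 ratio differed, cKO minus WT, by −0.14 for complex I, −0.13 for complex III, −0.20 for complex IV and −0.20 for complex V. With 1 library left out at a time, the differences nearest 0 were −0.066, −0.057, −0.15 and −0.10. For complexes I, III and V these came without WT replicate 1, for complex IV without another library. Over all complexes the ratio averaged 11.4 ± 0.878 in cKO and 12.9 ± 1.35 in WT (SD, n = 4 each). The whole mitochondrial sum was 4451324 ± 373010 normalized reads in cKO and 4850422 ± 633210 in WT, and the whole nuclear sum 389315 ± 15740 in cKO and 374348 ± 17102 in WT. In bulk tissue, fewer cells of a type and less RNA per cell cannot be told apart.

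**Figure D2:**
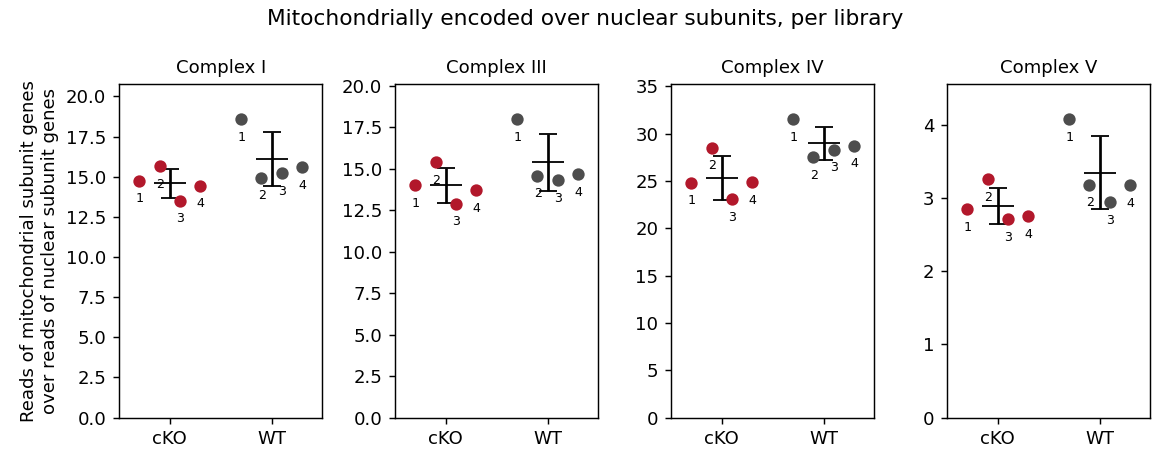
Each point is a library, numbered by replicate, and the vertical axis is the reads of mitochondrially encoded subunit genes over those of nuclear subunit genes of the same complex. Horizontal marks and bars are the mean and SD of 4 libraries. For complex IV the cKO libraries lie between 23.0 and 28.5 and the WT libraries between 27.5 and 31.5, and WT replicate 1 is the highest WT library in all 4 panels.

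**Figure D3:**
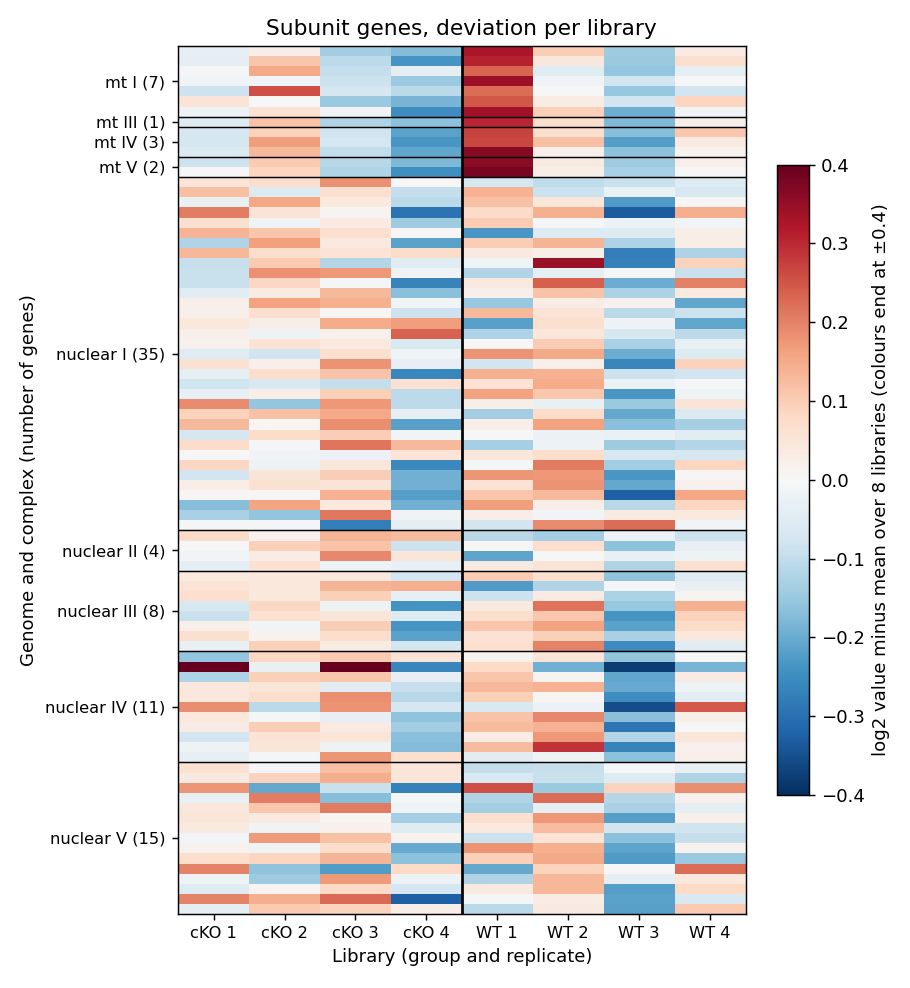
Rows are the 86 subunit genes with a mean of at least 100 normalized reads, grouped by genome and complex, and columns are libraries. Colour gives the log2 value of the gene minus its mean over the 8 libraries. WT replicate 1 is the highest library for 12 of the 13 mitochondrial genes. Over all 79 nuclear subunits, including those too low to be drawn, WT replicate 3 is the lowest for 36.

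Complex I is the largest of the complexes, with 35 nuclear members. Their median log2 fold change was 0.0035 with 18 positive, and 3 had an unadjusted p under 0.05. Ndufs7 (ENSMUSG00000020153), an iron-sulfur subunit of the arm that meets ubiquinone, had 2195, 2071, 2419 and 2279 normalized reads in cKO, against 1902, 2056, 1889 and 1923 in WT. The groups did not overlap, though cKO replicate 2 and WT replicate 2 lay close together. The log2 fold change of Ndufs7 was 0.20 (SE 0.075, limma adjusted p = 0.517).

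Ndufa8 (ENSMUSG00000026895), an accessory subunit, had 3058, 3019, 3296 and 3336 in cKO, against 2557, 3104, 2928 and 2575 in WT, with a log2 fold change of 0.19 (SE 0.085, limma adjusted p = 0.574). WT replicate 2 lay within the cKO range. Ndufb8, a further accessory subunit, averaged 4070 ± 98.3 in cKO and 3639 ± 362 in WT (SD, n = 4 each) without overlap, and was named after its values were seen. The summed level of the 35 nuclear subunits was 109406 ± 4827 in cKO and 106976 ± 5964 in WT (SD, n = 4 each).

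Complex II has no mitochondrially encoded subunit, and it alone gave sums without overlap. Its 4 subunits summed to 28136, 28064, 29765 and 28634 normalized reads in cKO, against 25784, 26275, 26294 and 26436 in WT. The log2 of that sum was 0.13 higher in cKO, and 0.094 higher when libraries were scaled to their nuclear reads. Most of the sum came from Sdha (ENSMUSG00000021577), the flavoprotein that oxidizes succinate, with 16781, 16084, 17455 and 17377 in cKO, against 14715, 14474, 15657 and 14968 in WT. Each cKO library lay above each WT library, and the log2 fold change of Sdha was 0.18 (SE 0.061, limma adjusted p = 0.510).

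The other subunits of complex II overlapped between the groups. Sdhb, the iron-sulfur subunit, averaged 4582 ± 288 in cKO and 4390 ± 294 in WT (SD, n = 4 each). Sdhc and Sdhd anchor the enzyme in the membrane. Sdhc averaged 3818 ± 242 in cKO and 3492 ± 230 in WT, and Sdhd 3326 ± 107 in cKO and 3362 ± 195.3 in WT. The median log2 fold change of the 4 genes was 0.096, with 3 positive.

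Complex III had 8 nuclear subunits by the symbol rule, with a median log2 fold change of −0.0013 and 4 positive. Cyc1, cytochrome c1, is also a nuclear subunit of complex III, but its symbol does not match the rule. It is left out of the counts, medians, sums and ratios and was read with the carriers. Its log2 fold change was 0.14 (SE 0.068, limma adjusted p = 0.592), and it was named after its values were seen. Uqcrc1 (ENSMUSG00000025651), a core protein of the matrix side, had 7027, 6974, 7437 and 7490 in cKO, against 5778, 6227, 6751 and 6633 in WT. The groups did not overlap, and WT replicate 1 was the lowest library. Its log2 fold change was 0.19 (SE 0.071, limma adjusted p = 0.519). Uqcrc2, the second core protein and the partner of Uqcrc1, averaged 9486 ± 372 in cKO and 9360 ± 762 in WT (SD, n = 4 each), with a log2 fold change of 0.022 that became −0.047 under quantile normalization and −0.013 scaled to nuclear reads. Uqcrfs1, the Rieske iron-sulfur protein, averaged 5113 ± 192 in cKO and 4824 ± 253 in WT. Uqcrh, the hinge protein, averaged 4681 ± 427 in cKO and 5101 ± 552 in WT, a log2 fold change of −0.12.

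Complex IV had 17 nuclear subunits with a median log2 fold change of 0.013 and 9 positive, and none had an unadjusted p under 0.05. Cox4i1 (ENSMUSG00000031818), a nuclear subunit that joins early in assembly, had 14813, 10633, 15541 and 9061 in cKO, against 11455, 9487, 8343 and 9547 in WT. cKO replicates 1 and 3 stood above every other library, and cKO replicates 2 and 4 lay inside the WT range. Its log2 fold change was 0.34 (SE 0.17, limma adjusted p = 0.599). Cox8a averaged 12003 ± 951 in cKO and 11636 ± 727 in WT (SD, n = 4 each), and its log2 fold change of 0.043 became −0.017 under quantile normalization. Cox5a, a subunit on the matrix side, averaged 3678 ± 242 in cKO and 3421 ± 186 in WT. Ndufa4, named after complex I but found in complex IV, averaged 4254 ± 311 in cKO and 4463 ± 365 in WT.

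Several subunits of complex IV come in pairs of isoforms, 1 of them broadly expressed and the other known from muscle, lung, testis or other tissues. In CA1 the broad isoform made up nearly all reads. Per kilobase, Cox4i1 had 16795 normalized reads in cKO and 13030 in WT, while Cox4i2, the lung isoform, had 55.0 in cKO and 45.6 in WT. Cox6a1 had 15859 in cKO and 15589 in WT per kilobase, while Cox6a2, known from heart and skeletal muscle, had 136 in cKO and 106 in WT. Cox8a stood likewise far above Cox8b, which had 61.9 in cKO and 103.5 in WT per kilobase.

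The other pairs followed the same order. Cox6b1 had 11234 in cKO and 11455 in WT per kilobase, while Cox6b2, a testis isoform, had 106 in cKO and 116 in WT. Cox7b had 4815 in cKO and 5109 in WT per kilobase, while Cox7b2 had 14.0 in cKO and 24.1 in WT. Cox7a2 had 7442 in cKO and 7412 in WT per kilobase, while Cox7a1, known from muscle, had 102.4 in cKO and 133.6 in WT. Ndufa4 had 9411 in cKO and 9873 in WT per kilobase, while its paralog Ndufa4l2 had 67.0 in cKO and 64.3 in WT.

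The low isoforms carried the widest errors. Of 7 members with a log2 fold change more than 0.25 from 0, 5 had a mean under 100 normalized reads: Cox4i2 with 0.26 (SE 0.41), Cox6a2 with 0.42 (SE 0.32), Cox7a1 with −0.32 (SE 0.33), Cox8b with −0.44 (SE 0.54) and Cox7b2 with −1.19 (SE 0.79). None had a limma adjusted p below 0.679. Cox7b2 was at 11.6, 12.0, 0 and 6.70 normalized reads in cKO, against 18.7, 12.2, 8.37 and 12.95 in WT. The remaining low isoforms, Cox6b2 and Ndufa4l2, had log2 fold changes of −0.11 (SE 0.29) and 0.058 (SE 0.26). Between paralogs the longest run of identical bases in their transcripts was 28, for Ndufa4 and Ndufa4l2, and the shortest such run was 8, for Atp5g2 and Atp5g3.

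Cox7a2l (ENSMUSG00000024248) had the smallest p of the 96 members. Its product, also known as SCAF1, belongs to the Cox7a family by sequence and is described as a factor of supercomplexes of complexes III and IV. Neither the protein, its function in this strain nor supercomplexes were measured here. It had 5731, 6906, 3884 and 5825 normalized reads in cKO, against 3754, 3683, 3695 and 3828 in WT. The WT libraries lay close together, cKO replicates 1, 2 and 4 lay far above them, and cKO replicate 3 lay just above the highest of them. The group means were 5586 ± 1254 in cKO and 3740 ± 66.0 in WT (SD, n = 4 each), or 149% of the WT level. The log2 fold change was 0.55 (SE 0.14, limma adjusted p = 0.493), and without cKO replicate 3 it was 0.71 with a limma adjusted p of 0.0602. The authors' deposited table gives Cox7a2l an FDR of 0.0121. Its relatives Cox7a1 and Cox7a2 had log2 fold changes of −0.32 and 0.013.

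**Figure D4:**
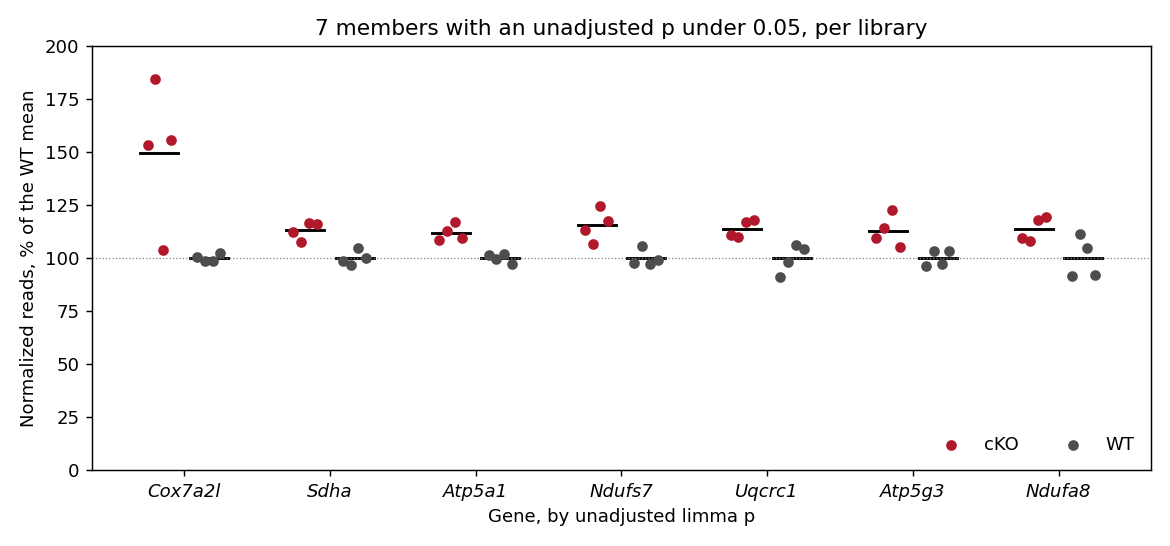
Each point is a library, cKO in red to the left of WT in grey, and the vertical axis gives the normalized reads of the gene as a percentage of its WT mean. The genes are 7 of the 8 members with an unadjusted p under 0.05, and black lines are group means. Cox7a2l stands at 149% of WT with 1 cKO library near 100%, and the other 6 genes stand between 112% and 115%.

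Complex V had 15 nuclear subunits with a median log2 fold change of −0.0025 and 7 positive. Atp5a1 (ENSMUSG00000025428), the alpha subunit of the catalytic head, had 28734, 29874, 30970 and 28965 in cKO, against 26838, 26297, 27008 and 25743 in WT. All cKO libraries lay above all WT libraries, and the log2 fold change of Atp5a1 was 0.16 (SE 0.057, limma adjusted p = 0.512). Atp5b, the beta subunit, which holds the catalytic sites and had the most reads of all nuclear members, had 39092, 37377, 40699 and 38719 in cKO, against 35102, 35157, 37312 and 36686 in WT. The groups did not overlap, with cKO replicate 2 just above WT replicate 3, and the log2 fold change was 0.11 (SE 0.058, limma adjusted p = 0.608).

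The c ring, which turns as protons pass, is built from a single protein that 3 genes encode: Atp5g1, Atp5g2 and Atp5g3. Atp5g3 (ENSMUSG00000018770) had 7545, 7880, 8456 and 7250 in cKO, against 6639, 7122, 6691 and 7134 in WT, without overlap. The log2 fold change of Atp5g3 was 0.17 (SE 0.070, limma adjusted p = 0.539). Atp5g1 averaged 3241 ± 293 in cKO and 3251 ± 245 in WT, and Atp5g2 averaged 1964 ± 88.6 in cKO and 1849 ± 183 in WT (SD, n = 4 each). Per kilobase, Atp5g3 led with 10900 in cKO and 9659 in WT. Atp5d, a subunit of the central stalk, averaged 5213 ± 311 in cKO and 4718 ± 305 in WT. Atp5f1, the peripheral stalk subunit b, averaged 9468 ± 1346 in cKO and 10801 ± 1275 in WT, a log2 fold change of −0.19, and was named after its values were seen.

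Subunit genes with short and with long transcripts differed in where their fold changes lay. Among the 79 nuclear subunits, 15 of 38 with a transcript under 700 bases had a positive log2 fold change (median −0.021), as had 14 of 23 between 700 and 1200 bases (median 0.029) and 12 of 18 of 1200 bases or longer (median 0.066). Across these genes length and fold change had a Spearman rho of 0.34 (n = 79), a description over genes that share the same 8 libraries. The 7304 other protein-coding genes with a mean of at least 1000 normalized reads had medians of −0.013, 0.026 and 0.044 in the same classes, with a rho of −0.11. No such limit was set for the 79 subunits. Their short class holds Cox6a2, Cox6b2, Cox7a1, Cox7b2 and Cox8b, each with a mean under 100 normalized reads. The limits of 700 and 1200 bases were set after the values were seen.

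The class of short transcripts also differed between libraries. Deviations were taken on the log2 scale from the mean of each gene over the WT libraries. The median deviation of short nuclear subunits was −0.014, 0.021, 0.068 and −0.12 in the cKO libraries, against 0.052, 0.11, −0.20 and 0.028 in the WT libraries. Other genes with transcripts under 700 bases had −0.060, 0.058, 0.037 and −0.12 in cKO, against 0.077, 0.082, −0.17 and 0.00053 in WT. WT replicate 3 was the lowest library for 36 of the 79 nuclear subunits. The 13 mitochondrial genes had −0.10, 0.036, −0.16 and −0.26 in cKO, against 0.25, −0.022, −0.21 and −0.044 in WT.

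**Figure D5:**
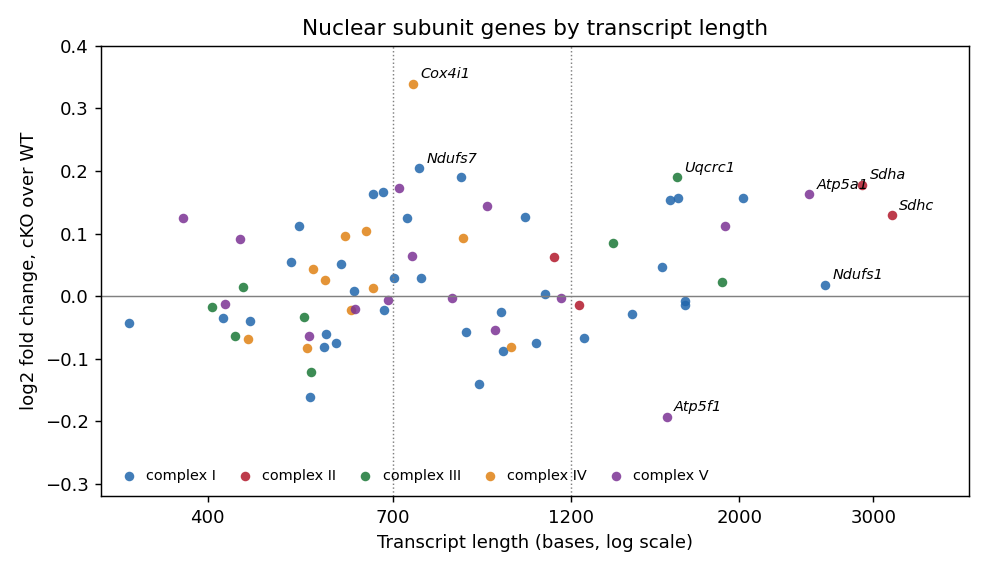
Each point is 1 of the 73 nuclear subunit genes with a mean of at least 100 normalized reads, coloured by complex. The horizontal axis is transcript length in bases on a log scale, the vertical axis is the log2 fold change of cKO over WT, and dotted lines stand at 700 and 1200 bases. Sdha at 0.18, Atp5a1 at 0.16 and Uqcrc1 at 0.19 lie among the long transcripts, and Cox4i1 at 0.34 is the highest point.

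Markers of other cells and of RNA quality were read beside these results. Choroid plexus markers had 0 of 10 positive log2 fold changes (median −0.76), and their summed level ran from 19356 to 70815 in cKO and from 12417 to 241092 in WT. Oligodendrocyte markers had 0 of 8 positive (median −0.27), with sums of 95189 to 147005 in cKO and 116789 to 172143 in WT. Ependymal markers had 1 of 6 positive (median −0.28), with sums of 1059 to 1378 in cKO and 1086 to 2129 in WT, and erythrocyte markers 0 of 5 (median −0.20), with sums of 5997 to 13256 in cKO and 5844 to 17602 in WT. Interneuron markers had 7 of 8 positive (median 0.16), with sums of 28317 to 35722 in cKO and 24657 to 32536 in WT. Microglial markers had 5 of 6 positive (median 0.18), with sums of 6209 to 8531 in cKO and 5975 to 6846 in WT. Of 7 transcripts retained in the nucleus, 0 had a positive fold change (median −0.44), and 6 were lower in cKO at an unadjusted limma p under 0.05. Their sums ran from 274728 to 412940 in cKO and from 378946 to 431074 in WT. In the other lists, 2 oligodendrocyte, 2 ependymal and 1 choroid plexus markers were lower at that p. Higher at that p were 2 microglial markers and 1 each of the pyramidal neuron, interneuron and astrocyte markers. Of all genes tested, 4.6% were lower and 4.07% higher. The medians of pyramidal neuron, astrocyte, oligodendrocyte precursor, and endothelial and mural markers lay between −0.038 and 0.049. The summed levels of the groups overlapped for all 11 lists, and every marker had reads in every library. The part of these lists in the results above was not tested, apart from the choroid plexus markers: with them as a covariate 10 members had an unadjusted p under 0.05, all higher in cKO, and 0 an adjusted p under 0.05 in limma. The share of all genes at that unadjusted p is not given for the fit with the covariate, so the 10 members cannot be set against it.

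Genes that build, make or feed the complexes were read from fixed lists, and none of them passed limma after adjustment. Over all genes tested, 47.3% had a positive log2 fold change, and at an unadjusted p under 0.05 4.07% were higher and 4.6% lower in cKO. These shares take in weakly read genes. Other protein-coding genes with a mean of at least 1000 normalized reads differed by transcript length. Positive were 50 of 115 under 700 bases, 223 of 379 from 700 to under 1200, and 4220 of 6810 of 1200 or longer (median 0.044). Cox11 and other listed genes have a lower mean, so neither comparison is matched to the lists. Of 52 assembly factors, 33 were positive (63.5%, median 0.028), with 4 higher (7.69%) and 0 lower at an unadjusted p under 0.05. Atpaf1, a chaperone of the ATP synthase head, averaged 2004 ± 61.9 in cKO and 1677 ± 116 in WT (SD, n = 4 each), a log2 fold change of 0.26 (SE 0.076, limma adjusted p = 0.496). Cox11, which delivers copper to complex IV, averaged 597 ± 45.4 in cKO and 493 ± 18.5 in WT, a log2 fold change of 0.28 (SE 0.099, limma adjusted p = 0.514). For both, every cKO library lay above every WT library.

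Of 23 tested carriers and exchange proteins, Cyc1 of complex III among them, 19 were positive (82.6%, median 0.078). Positive were 47.3% of all genes, and 4220 of 6810 in the class of long transcripts given above. At an unadjusted p under 0.05, 2 carriers were higher (8.7%, against 4.07% of all genes) and 0 lower. Both of these were channels of the outer membrane: Vdac1 averaged 20341 ± 555 in cKO and 18513 ± 263 in WT (limma adjusted p = 0.544), and Vdac2 averaged 5904 ± 211 in cKO and 5336 ± 227 in WT (limma adjusted p = 0.574). Of 17 transcriptional regulators of mitochondrial biogenesis, 5 were positive (median −0.037), and none had an unadjusted p under 0.05. Gabpb2, a subunit of the factor also called NRF2, averaged 1855 ± 290 in cKO and 2214 ± 286 in WT, and the nuclear receptor gene Ppard 373 ± 70.3 in cKO and 511 ± 172 in WT.

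Inside the organelle, 18 genes of mitochondrial transcription and replication had 9 positive (median −0.0095), with 0 higher and 2 lower (11.1%, against 4.6% of all genes) at an unadjusted p under 0.05. Primpol, a primase and polymerase, averaged 212 ± 37.0 in cKO and 281 ± 31.9 in WT, a log2 fold change of −0.41 (SE 0.16, limma adjusted p = 0.529). Mterf1a, a mitochondrial transcription termination factor gene, averaged 175 ± 32.6 in cKO and 234 ± 22.8 in WT, a log2 fold change of −0.43 (SE 0.17, limma adjusted p = 0.531). Of 17 genes of mitochondrial RNA processing and decay, 11 were positive (median 0.054) and none had an unadjusted p under 0.05. Ptcd1 and Ptcd2, which bind mitochondrial RNA, had log2 fold changes of 0.22 and 0.14. Of 24 mitochondrial rRNA and tRNA genes, 10 were positive (median −0.040) and none had an unadjusted p under 0.05. The tRNA genes mt-Tc and mt-Tq had log2 fold changes of 0.21 and −0.37.

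Promoters were searched for short words of factors known to bind nuclear genes of this pathway. Of the 83 nuclear members, 69 had an entry in the RefSeq promoter table (GRCm38.p6), whose windows hold 250 bases before and 50 after a start of the gene. The word GCATGCGC of NRF1, which reads nearly alike on both strands so that overlapping matches counted as 1 gene, was found on either strand, in any window of the gene, for 10 of 69 members (14.5%) and in 3.05% of 27025 genes. The word CCGGAAGT of ETS factors was found in 5 (7.25%) and in 4.31% of genes, and the word AAGATGGCG of YY1 in 8 (11.6%) and in 1.64% of genes. Members with the NRF1 word had a median log2 fold change of 0.044 and those without it one of −0.0084. The same pair was 0.014 and −0.0048 for the ETS word, and −0.018 and −0.0025 for the YY1 word. A match is a description of the letters, not a site.

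Among the members with an unadjusted limma p under 0.05, Ndufa8 holds the NRF1 word directly before its start, and Uqcrc1 holds it after its start. Ndufs7 holds the YY1 word after its start. Cox7a2l, Sdha and Atp5g3 hold none of the 3 words in their windows. The 100 bases before the start are printed for Ndufa8, Cox7a2l and Sdha on the strand of the gene, with the NRF1 word in capitals. They lie at chr2:36049339-36049438 for Ndufa8, chr17:83514334-83514433 for Cox7a2l and chr13:74350241-74350340 for Sdha, all on the minus strand of GRCm38.p6.
Ndufa8: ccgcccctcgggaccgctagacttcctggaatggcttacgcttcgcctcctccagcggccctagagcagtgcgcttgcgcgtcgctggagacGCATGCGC
Cox7a2l: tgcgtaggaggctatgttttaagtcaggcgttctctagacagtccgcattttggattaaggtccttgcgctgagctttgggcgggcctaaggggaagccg
Sdha: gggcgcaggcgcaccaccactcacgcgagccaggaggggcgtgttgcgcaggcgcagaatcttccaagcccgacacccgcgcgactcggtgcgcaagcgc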

How the data were processed

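Libraries were made with a stranded mRNA kit after Trizol extraction, per the labels' protocols. The submitters' processing notes name build mm9 and the tools STAR, StringTie and DESeq2 without versions. Annotation and strand setting are not given in the sources used. The authors deposited 1 table of log2 values per gene and library, each equal to log2(reads / size factor + 1), since 100% of values gave whole reads (tolerance 0.001). The authors' deposited table also holds a log2 fold change, p-value and FDR.

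In R 4.3.3, limma 3.58.1 (trend, robust) was fitted to the deposited log2 values (pseudocount 1) of the 4 cKO and 4 WT libraries, over 26135 genes with at least 1 normalized read in at least 4 libraries, with Benjamini-Hochberg adjustment and a threshold of 0.05. The procedure was tested on simulated data. Counts, medians, sums and ratios over members carry no test. Named genes were all mitochondrial members, per complex the nuclear subunit with the most reads and the 3 with the smallest p, paralog sets, Brpf1 and 2 genes per list; 1 gene so chosen is not reported here. Members and lists were chosen with earlier results of these data known. Transcript lengths are those of the middle-length APPRIS principal transcript in GENCODE M21 (GRCm38). No 2 libraries agreed within sampling noise. Figures were drawn with matplotlib 3.10.9.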

Additional observations from a re-analysis of the deposited data

Results flagged for a closer look

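Within groups of 4 libraries, 6 values stood apart from the other 3 by Dixon's criterion, among 148 groups looked at, where chance gives about 1 in 20. WT replicate 1 had 363756 normalized reads of mt-Nd2, the other WT libraries 272957 to 287414. The same library had a mitochondrial over nuclear ratio of 17.97 for complex III, the others 14.3 to 14.7, and 3150 normalized reads of Sdhc, the others 3572 to 3651. cKO replicate 2 had 133191 normalized reads of mt-Nd6, the other cKO libraries 103303 to 106421. cKO replicate 4 had 8927 normalized reads of Uqcrc2, the others 9660 to 9679. WT replicate 2 had 767 normalized reads of Ppard, the other WT libraries 403 to 453.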

How the results depend on the processing

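No member had an adjusted p under 0.05 in limma under any of the 18 alternative fits, and that of Cox7a2l ranged from 0.0602 to 0.746. Genes called across the table numbered 5, 8 with array weights, 2 with the replicate block and 4 to 7 without 1 library. The block gave 6 members with an unadjusted p under 0.05. The labels do not say that replicate numbers pair the libraries. Same-numbered libraries correlated between −0.040 and 0.029, which shows no pairing but cannot exclude one. Members with an unadjusted p under 0.05 and higher in cKO numbered 8, but 3 under quantile normalization, 5 scaled to nuclear reads and 2 to 10 without 1 library; those lower numbered 0, but 1 under quantile normalization and 0 to 4 without 1 library. Shares of all genes at an unadjusted p are not given for these settings. Quantile normalization sets genes of equal rank to equal values. Under it the median of the 13 mitochondrial genes was −0.016, with mt-Nd3 at −0.21, mt-Nd4l at −0.23 and mt-Atp8 at −0.16. The log2 sum of complex II, 0.13, was 0.094 scaled to nuclear reads; scalings and omitted libraries for sums were added after seeing the data. Medians and ratios otherwise moved by less than the SD between libraries.

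Signs of small fold changes turned as follows. Under quantile normalization mt-Nd1 had 0.022, Uqcrc2 −0.047, Cox8a −0.017, Cox6a1 −0.037, Cox6b2 0.043 and Cox7a2 −0.025. Scaled to nuclear reads, mt-Nd5 had −0.031, mt-Nd6 −0.034, Uqcrc2 −0.013, Cox6a1 −0.0088 and Cox7a2 −0.022. With array weights mt-Nd5 had −0.0028, mt-Nd6 −0.0077, Cox7a2 −0.0042 and Atp5g1 0.0022. With the choroid plexus covariate mt-Nd5 had −0.035, mt-Nd6 −0.035, Cox4i2 −0.050, Cox6b2 0.042, Atp5g1 0.049 and Ndufa4l2 −0.0079. Without 1 library the ranges were −0.046 to 0.083 for mt-Nd5, −0.085 to 0.076 for mt-Nd6, −0.028 to 0.060 for Uqcrc2, −0.0017 to 0.10 for Cox8a, −0.032 to 0.46 for Cox4i2, −0.039 to 0.072 for Cox6a1, −0.094 to 0.020 for Cox6b1, −0.30 to 0.059 for Cox6b2, −0.081 to 0.061 for Cox7a2, −0.063 to 0.041 for Atp5g1 and −0.11 to 0.22 for Ndufa4l2. The causes were not tested.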
